A study of Mus musculus with 4 samples.

Results

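The MHC class I presentation genes described here are 10 genes, found by their symbols among the 24391 genes of one count table. They are the heavy chains *H2-K1*, *H2-D1* and *H2-T23*, the light chain *B2m*, the peptide transporter subunits *Tap1* and *Tap2*, the peptide editors *Tapbp* and *Tapbpl*, the trimming peptidase *Erap1* and the transcriptional activator *Nlrc5*. All of them had counts and passed the filter on low counts, *Nlrc5* only through its GSI libraries. They were measured by RNA-Seq in 4 libraries of Beko cells, a mouse progenitor T-cell line whose Notch pathway is constitutively active. In 2 libraries (GSI) the cells had been kept for 48 h in DAPT, a γ-secretase inhibitor that blocks formation of the active Notch1 fragment NICD1. In the other 2 (washout) the same 48 h in DAPT was followed by removal of the inhibitor and 24 h of further culture. The labels give the DAPT dose as 10 mg/ml and the study's methods give a lower unit, μg/ml. All 4 libraries come from 1 cell line and had received the inhibitor, and no library of cells washed and cultured in the same way without GSI was analysed here. Return of Notch activity, the wash and the additional culture time therefore cannot be told apart. The sources do not say whether replicates are separate cultures, so p-values measure only the spread between these libraries.

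MHC class I molecules carry peptides from proteins made inside the cell to its surface, where CD8 T-cells read them. A class I molecule is a heavy chain, the light chain β2-microglobulin and a peptide. The proteasome cuts proteins into peptides, TAP1 and TAP2 pump them into the endoplasmic reticulum, ERAP1 trims them, and tapasin (*Tapbp*) and its relative TAPBPR (*Tapbpl*) help to fit them into the heavy chain. NLRC5 enters the nucleus and acts on class I promoters together with the RFX, CREB/ATF and NF-Y factors, and interferons raise transcription of most of these genes. Immature thymocytes are known for low surface class I, which increases as they mature.

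Upon washout the 10 genes did not move as a block. *H2-T23*, *H2-D1*, *Tapbp* and *Nlrc5* were lower at an adjusted p under 0.05 with a log2 fold change below -1, by 4.09-fold, 3.12-fold, 2.48-fold and 5.80-fold respectively. *Tap1*, *Tap2* and *Tapbpl* fell by 0.59, 0.72 and 0.69 on the log2 scale. *B2m* and *Erap1* were higher, by 1.52-fold and 1.49-fold. *H2-K1* did not pass the test. Counts were compared by the quasi-likelihood test of edgeR with Benjamini-Hochberg adjustment over all 12266 genes tested, and every adjusted p comes from that fit unless another setting is named.

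With both thresholds, 4 of the 10 genes were lower, where 11.7% of all tested genes were lower, and 0 were higher, where 7.74% of all tested genes were higher. No member reached a log2 fold change of 1 in the upward direction in any setting tried, DESeq2 included, the highest value being 0.69 for *Erap1*, so the 0 does not depend on the p-value. By the adjusted p alone, 7 were lower and 2 were higher, against 25.4% and 27.0% of all tested genes. The median log2 fold change of the 10 genes was -0.84, and that of all tested genes was -0.01. Without *Nlrc5*, 3 of 9 genes were lower with both thresholds, and the median was -0.72. When all genes that passed the filter through 1 condition only were left out, 11557 genes remained. Of these, 1120 were lower and 900 higher with both thresholds, with a median of 0.03. The washout libraries lay below the GSI libraries for 8 of the 10 genes and above them for the other 2. That separation was shown by 4795 and 4686 of all tested genes in the same directions.

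Promoter windows of 3 genes past both thresholds and of both genes that were higher are shown because class I promoters are known for shared elements: an interferon response element, an NF-κB element and an SXY module with CRE-like and CCAAT sequences. RefSeq windows on GRCm38.p6, from 250 bases before the start to 50 after it, were matched by symbol for *H2-K1*, *H2-D1*, *B2m*, *Tap1*, *Tapbp*, *Erap1* and *H2-T23*, and *Tap2*, *Tapbpl* and *Nlrc5* had no entry. Capitals mark matches on either strand to an interferon response element core (GAAANNGAAA), an NF-κB core (GGGANNNNCC), CCAAT, the CRE core TGACG or the core TGGGAA bound by RBPJ, the DNA-binding factor of the Notch pathway. Overlapping matches run together in 1 stretch of capitals. The first 3 windows belong to genes that were lower upon washout and the last 2 to genes that were higher.
H2-D1 (chr17:35262844-35263143, plus strand): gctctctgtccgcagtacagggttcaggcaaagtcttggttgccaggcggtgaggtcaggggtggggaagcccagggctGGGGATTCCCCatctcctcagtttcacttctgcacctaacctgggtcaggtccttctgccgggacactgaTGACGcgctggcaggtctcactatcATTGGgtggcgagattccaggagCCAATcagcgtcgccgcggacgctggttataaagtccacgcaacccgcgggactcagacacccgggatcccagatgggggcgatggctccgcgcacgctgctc
H2-T23 (chr17:36032652-36032951, minus strand): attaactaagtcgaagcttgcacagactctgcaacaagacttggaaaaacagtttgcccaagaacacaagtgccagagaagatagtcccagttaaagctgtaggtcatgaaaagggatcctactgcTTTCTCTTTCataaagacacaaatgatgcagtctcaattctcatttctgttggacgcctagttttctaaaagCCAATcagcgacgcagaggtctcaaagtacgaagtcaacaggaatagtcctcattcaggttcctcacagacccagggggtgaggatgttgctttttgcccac
Tapbp (chr17:33919228-33919527, plus strand): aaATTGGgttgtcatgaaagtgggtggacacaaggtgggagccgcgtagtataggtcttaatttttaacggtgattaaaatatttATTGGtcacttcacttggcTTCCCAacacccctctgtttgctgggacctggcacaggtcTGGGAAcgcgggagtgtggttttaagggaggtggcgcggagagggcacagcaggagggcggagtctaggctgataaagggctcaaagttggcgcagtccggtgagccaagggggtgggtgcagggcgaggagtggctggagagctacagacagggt
B2m (chr2:122147437-122147736, plus strand): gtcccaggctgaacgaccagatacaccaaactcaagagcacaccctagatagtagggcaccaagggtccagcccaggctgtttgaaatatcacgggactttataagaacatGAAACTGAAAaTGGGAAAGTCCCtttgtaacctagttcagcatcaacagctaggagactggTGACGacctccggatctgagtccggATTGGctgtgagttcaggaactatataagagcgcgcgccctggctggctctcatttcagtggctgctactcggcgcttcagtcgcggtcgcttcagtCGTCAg
Erap1 (chr13:74639603-74639902, plus strand): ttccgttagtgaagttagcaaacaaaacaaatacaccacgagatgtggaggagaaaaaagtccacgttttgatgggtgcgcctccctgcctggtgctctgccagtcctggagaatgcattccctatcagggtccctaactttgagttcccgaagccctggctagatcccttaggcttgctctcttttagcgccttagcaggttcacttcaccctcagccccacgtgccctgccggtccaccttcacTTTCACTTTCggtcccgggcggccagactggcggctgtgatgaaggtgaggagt

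The interferon response element core was present in the windows of *B2m*, *Erap1* and *H2-T23*, that is in both genes that were higher and in the gene with the smallest adjusted p among those that were lower. Of all 32851 promoter windows of this length, 3.44% hold it. Its first base lay at position -139 in *B2m*, -124 in *H2-T23* and -4 in *Erap1*, relative to the annotated start. The pattern is strict. The windows of *H2-D1* and *H2-K1* hold tttcacttct shortly after the NF-κB core, which falls short of a full match on the other strand and was not marked. A window without a match can therefore still hold a variant of the element. The NF-κB core was found in *H2-K1*, *H2-D1* and *B2m* (20.7% of all windows). *H2-D1* and *H2-K1* carry it in the same stretch, GGGGATTCCCC, which fits the core on both strands, so that each has 1 pair of overlapping matches. The CRE core was found in *H2-K1*, *H2-D1*, *B2m* and *Tap1* (20.8% of all windows), and CCAAT in those 4 genes, *Tapbp* and *H2-T23* (37.4% of all windows). The RBPJ core was found in *B2m*, *Tap1* and *Tapbp* (25.6% of all windows), which were respectively higher, lower and lower. In *B2m* it overlaps the NF-κB core. Matches thus occurred in windows of genes of both directions. A match describes the letters of a window and not the binding of a factor.

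Levels differed widely among the 10 genes. Per kb of exon, the mean GSI level in CPM (counts scaled to library size) was 454.0 for *B2m*, 77.1 for *Tap2*, 49.4 for *Tapbp*, 31.5 for *Tapbpl*, 28.3 for *Tap1*, 18.9 for *Erap1*, 16.8 for *H2-T23*, 7.12 for *H2-D1*, 1.12 for *H2-K1* and 0.505 for *Nlrc5*. Neighbors in this order did not overlap between their libraries, except *Erap1* and *H2-T23*. Upon washout the order changed in the middle. *Erap1* moved to the third place at 28.2 CPM per kb, and *Tapbp*, *Tapbpl* and *Tap1* came to lie close together at 20.0, 19.5 and 18.8, with the libraries of *Tapbp* and *Tapbpl* overlapping. Among the 10962 tested genes with a known length, *B2m* ranked 101 with GSI and 89 after washout, while *H2-T23* went from 3643 to 7564 and *Tapbp* from 1109 to 3368.

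**Figure D1:**
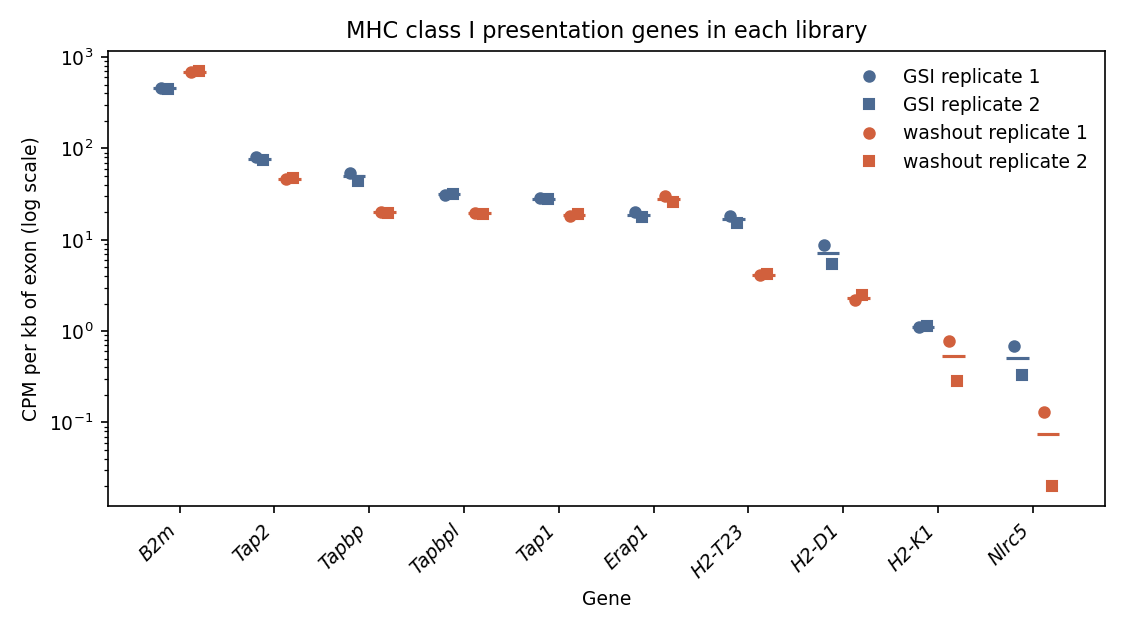
Level of each class I presentation gene in every library, in CPM per kb of exon on a log axis, ordered by the GSI mean; points are single libraries and short lines are condition means. *B2m* lies far above the other 9 genes, and orange washout points lie below the blue GSI points for all genes except *B2m* and *Erap1*.

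Heavy chains form the peptide groove and are the part of the molecule that differs between class I molecules. *H2-T23* encodes Qa-1, a nonclassical heavy chain that shows leader peptides of other class I molecules to the receptor CD94/NKG2A of NK cells. It lies on chromosome 17 of mm9 at chr17:36166718-36169800, on the minus strand. Its counts were 1694 and 642 in the GSI libraries and 400 and 162 upon washout, which are 52.9, 44.0, 11.8 and 12.1 CPM. Both washout libraries were far below both GSI libraries and almost equal to each other. The log2 fold change was -2.03 with a standard error (SE) of 0.136 (edgeR adjusted p = 0.000334). *H2-T23* was also the only one of the 10 genes whose change was called when tested against a log2 fold change of 1 instead of 0. *A930015D03Rik*, *BC023719* and *RP24-443D19.4* overlap it on the other strand, and the strand setting of the counting is not stated.

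*H2-D1*, a classical heavy chain, lies at chr17:35399675-35404444 on the plus strand. It had 734 and 203 counts with GSI and 191 and 86 after washout, or 22.9, 13.9, 5.61 and 6.40 CPM. The conditions did not overlap, although the GSI libraries differed more from each other than those of *H2-T23* did. This gave a log2 fold change of -1.64 (SE 0.267, edgeR adjusted p = 0.00342).

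*H2-K1*, the other classical heavy chain of the list, lies at chr17:34132962-34137278 on the minus strand and was far less abundant. It had 92 and 43 counts with GSI and 69 and 10 after washout, corresponding to 2.88, 2.95, 2.03 and 0.744 CPM. Both washout libraries were below the GSI libraries, but they differed from each other by more than washout replicate 1 differed from either GSI library. The log2 fold change of -0.96 (SE 0.442) did not pass the test (edgeR adjusted p = 0.115), and a single library decided its size. It was -0.50 without washout replicate 2 and -1.95 without washout replicate 1, where the adjusted p was 0.0162.

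Heavy chain genes share stretches of sequence to very different extents, and reads were aligned with 1 reported place each, so that rows with shared stretches can exchange reads. Of all 50-base windows in the exons of *H2-D1*, 13.6% occur again elsewhere in chr17:33000001-37500000 of mm9, and the share is 17.0% for *H2-K1* and 30.4% for *H2-T23*. Classical heavy chains also differ strongly between mouse strains. The strain of Beko cells is not given in the sources used here, and how many of its class I reads the reference genome misses was not tested. The levels of *H2-K1* and *H2-D1* relative to *B2m* are therefore uncertain.

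Of the 32 heavy chain rows in the table, 22 were tested. Some rows may repeat the same signal. *H2-Q6* and *H2-Q8*, and *H2-Q7* and *H2-Q9*, hold identical counts, and *H2-L* and *H2-T9* resemble *H2-D1* and *H2-T22*. The counts of rows and the medians below are not adjusted for this. With both thresholds 5 were lower (*H2-T23*, *H2-Q5*, *H2-M3*, *H2-L* and *H2-D1*) and 2 were higher (*H2-T3* and *H2-T10*). Of all tested genes 11.7% were lower and 7.74% higher in this way, and the higher share of the family is near the latter. *H2-Q4* and *H2-T24* were lower by the adjusted p alone, 13 rows were not called, and the median log2 fold change of the 22 rows was -0.75. *H2-T24* (log2 fold change -0.72, edgeR adjusted p = 0.0393) was not called by DESeq2 (adjusted p = 0.0653), nor without GSI replicate 2, washout replicate 1 or washout replicate 2 (adjusted p = 0.222, 0.138 and 0.0558). *H2-Q5* and *H2-Bl* passed the filter on low counts only through their GSI libraries and *H2-T3* only through its washout libraries. The direction of these rows was therefore a condition of their being tested. Without them, 4 of 19 rows were lower and 1 was higher with both thresholds, and the median was -0.74. Of the 11557 genes left after the same omission over all genes, 1120 were lower and 900 higher. *H2-T3* encodes the thymus leukemia antigen, a nonclassical molecule that binds CD8αα. It rose from 0.375 and 0.548 CPM to 2.03 and 4.02 CPM (log2 fold change 2.71, SE 0.495, edgeR adjusted p = 0.00523), and only 0.987% of its exon windows occur again in the region. *H2-T10*, which encodes a ligand of some γδ T-cell receptors, rose from 736 and 295 counts to 1559 and 808 counts (log2 fold change 1.28, SE 0.161, edgeR adjusted p = 0.00135).

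The copy of *H2-T10* named *H2-T22* had 51.1 and 43.0 CPM with GSI and 46.8 and 54.2 CPM after washout, with overlapping conditions and a log2 fold change of 0.09 (edgeR adjusted p = 0.578). Its sign turned to -0.11 when scaled by the library total alone. The ratio of *H2-T10* to *H2-T22* counts was 0.450 and 0.470 with GSI and 0.979 and 1.11 after washout, and 34.6% and 36.1% of their exon windows occur again in the region. On the lower side, *H2-M3*, which presents N-formylated peptides, went from 2.56 and 2.54 CPM to 0.676 and 0.967 CPM (log2 fold change -1.69, SE 0.336, edgeR adjusted p = 0.00727). Only 0.752% of its windows are repeated. Its adjusted p was 0.0589 without washout replicate 1. The *H2-L* row, which had no position in the annotation used, had 557, 171, 146 and 68 counts and resembled the *H2-D1* row in its pattern (log2 fold change -1.67). *H2-Q4* had 67.5 and 65.7 CPM with GSI and 35.1 and 40.0 CPM after washout (log2 fold change -0.83). *H2-Q5* rested on 35, 12, 7 and 5 counts (log2 fold change -1.89, edgeR adjusted p = 0.0178), and DESeq2 did not call it (adjusted p = 0.133).

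A sum does not depend on how reads are divided between copies within the family. All heavy chain rows together had 316.7 and 279.0 CPM with GSI and 216.5 and 259.9 CPM after washout. Both washout libraries lay below both GSI libraries. The log2 fold change of the sum was -0.32 (SE 0.130) and did not pass the test (edgeR adjusted p = 0.0782). The rows of *H2-Q6* and *H2-Q8*, and those of *H2-Q7* and *H2-Q9*, hold identical counts and enter the sum as deposited. With these counted once, the value was -0.32 (edgeR adjusted p = 0.0776). With *H2-L* and *H2-T9* left out as well, whose counts resemble those of *H2-D1* and *H2-T22* without being identical, it was -0.37 (edgeR adjusted p = 0.0473). Both alternatives were chosen after the data were seen.

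**Figure D2:**
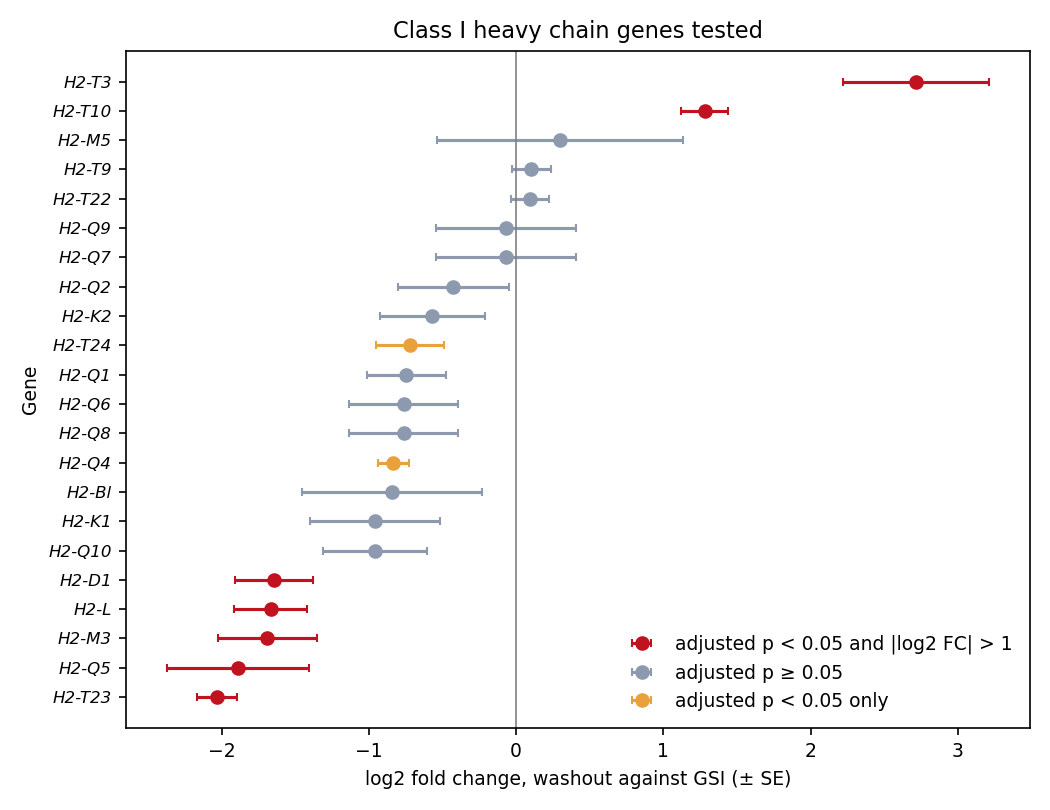
log2 fold change of washout against GSI (x axis, points with bars of 1 SE) for each of the 22 class I heavy chain genes tested, colored by whether both thresholds, the adjusted p alone or neither was passed. *H2-T3* and *H2-T10* lie above 1, *H2-T23*, *H2-Q5*, *H2-M3*, *H2-L* and *H2-D1* lie below -1, and the remaining genes lie between.

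*B2m* encodes the light chain β2-microglobulin, which all classical and most nonclassical heavy chains need to fold. It lies at chr2:121973422-121978819 on the plus strand, and *Patl2* overlaps it on the other strand. *B2m* was the most abundant of the 10 genes, with 12535 and 5676 counts with GSI and 20046 and 8053 after washout. These are 391.8 and 389.0 CPM with GSI and 589.0 and 599.2 CPM after washout. Replicates were nearly equal within each condition and the conditions were clearly apart. The log2 fold change was 0.61 (SE 0.102, edgeR adjusted p = 0.00392). After correcting for exon length and GC content, which differ between *B2m* (41.2% GC) and the genes on chromosome 17, it was 0.26 and was no longer called (adjusted p = 0.0777).

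*B2m* and *H2-D1* moved in opposite directions. Per kb of exon there was 51.4 and 84.1 times as much *B2m* as *H2-D1* in the GSI libraries and 315.8 and 281.8 times as much upon washout. The ratio of *B2m* to *Tapbp* per kb was 8.36 and 10.2 with GSI and 33.7 and 35.5 after washout. Between the heavy chains, the ratio of *H2-T23* to *H2-D1* counts was 2.31 and 3.16 with GSI and 2.09 and 1.88 after washout. Such ratios within a library do not depend on how libraries are scaled, but they are not corrected for GC content.

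*Tap1* and *Tap2* encode the 2 subunits of the peptide transporter and lie close together on chromosome 17, both on the plus strand. *Tap1* (chr17:34324498-34334170) had 5046 and 2213 counts with GSI and 3434 and 1414 after washout, which are 157.7, 151.7, 100.9 and 105.2 CPM. Its log2 fold change was -0.59 (SE 0.0898, edgeR adjusted p = 0.00271). *Tap2* (chr17:34340472-34353266) had 9712 and 4076 counts with GSI and 5997 and 2390 after washout, or 303.6, 279.4, 176.2 and 177.8 CPM. It showed a log2 fold change of -0.72 (SE 0.0980, edgeR adjusted p = 0.00176). Both genes were lower in both washout libraries, with small differences between replicates. After correcting for exon length and GC content, both were still called and smaller, at -0.29 for *Tap1* (adjusted p = 0.0176) and -0.40 for *Tap2* (adjusted p = 0.00676). The ratio of *Tap2* to *Tap1* per kb stayed between 2.45 and 2.79 in the 4 libraries, and it was higher in both GSI libraries (2.79 and 2.67) than in the washout libraries (2.53 and 2.45). *Psmb9* overlaps *Tap1*, and *Gm15821* and *Gm20496* overlap *Tap2*, each on the other strand.

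*Tapbp* encodes tapasin, which holds empty class I molecules at the transporter and favors the exchange of weakly bound peptides. It lies at chr17:34052844-34066235 on the plus strand. *Tapbp* had 5749 and 2134 counts with GSI and 2281 and 869 after washout, which are 179.7, 146.3, 67.0 and 64.7 CPM. The GSI replicates differed somewhat and the washout replicates hardly, and the conditions were far apart. *Tapbp* had a log2 fold change of -1.31 (SE 0.123, edgeR adjusted p = 0.000587). *Zbtb22* overlaps *Tapbp* on the same strand, so that reads of the overlap can belong to either gene.

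*Tapbpl* encodes the tapasin relative TAPBPR, which edits peptides outside the transporter complex. It lies at chr6:125173951-125181878 on the minus strand, with *Vamp1* overlapping on the other strand. It had 2354 and 1085 counts with GSI and 1579 and 612 after washout, corresponding to 73.6, 74.4, 46.4 and 45.5 CPM. Replicates were almost equal in both conditions. The log2 fold change of -0.69 (SE 0.0892, edgeR adjusted p = 0.00153) was close to those of *Tap1* and *Tap2*. The editors therefore were both lower, *Tapbp* past both thresholds and *Tapbpl* by the adjusted p alone. After correcting for exon length and GC content, both were still called and smaller. *Tapbp* was then at -1.01, close to the threshold, and *Tapbpl* at -0.55 (edgeR adjusted p = 0.000783 and 0.00160). Whether the folds of *Tapbp* and *Tapbpl* differ from each other was not tested.

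*Erap1* encodes the aminopeptidase that shortens peptides in the endoplasmic reticulum to the length that fits the groove. It lies at chr13:74777320-74829983 on the plus strand, with no annotated gene overlapping it. *Erap1* had 3002 and 1206 counts with GSI and 4811 and 1637 after washout, or 93.8, 82.7, 141.3 and 121.8 CPM. Both washout libraries were above both GSI libraries. Its log2 fold change was 0.58 (SE 0.117, edgeR adjusted p = 0.00793), and under every scaling tried it remained positive, between 0.38 and 0.69 over all alternatives. *Erap1* and *B2m*, the genes that were higher, are also those with the lowest GC content of the 10 (41.2% each), while the other 8 lie between 52.9% and 57.2%. The part of GC content in this split was not tested beyond the correction, under which *Erap1* was still called and *B2m* was not. With a replicate block added to the correction, *B2m* was called (0.25, adjusted p = 0.00253).

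*Nlrc5* encodes the activator of class I transcription. It lies at chr8:96996663-97051172 on the plus strand and is listed as a long noncoding RNA in the annotation used. It had 159 and 35 counts with GSI and 32 and 2 after washout, which are 4.97, 2.40, 0.940 and 0.149 CPM. Both washout libraries lay below both GSI libraries, but replicates of one condition also differed from each other severalfold, and replicate 1 was higher in both conditions. This gave a log2 fold change of -2.54 with an SE of 0.646, the largest SE of the 10 genes (edgeR adjusted p = 0.0179). Without GSI replicate 1 it was -1.90 and was not called (adjusted p = 0.0895), and without washout replicate 1 it was -4.61. *Nlrc5* passed the filter on low counts only through its GSI libraries, so that its lower value upon washout was a condition of its being tested. With 2 counts in one library, which is below the 3 counts that correspond to 0.223 CPM there, the size of the change is poorly known.

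**Figure D3:**
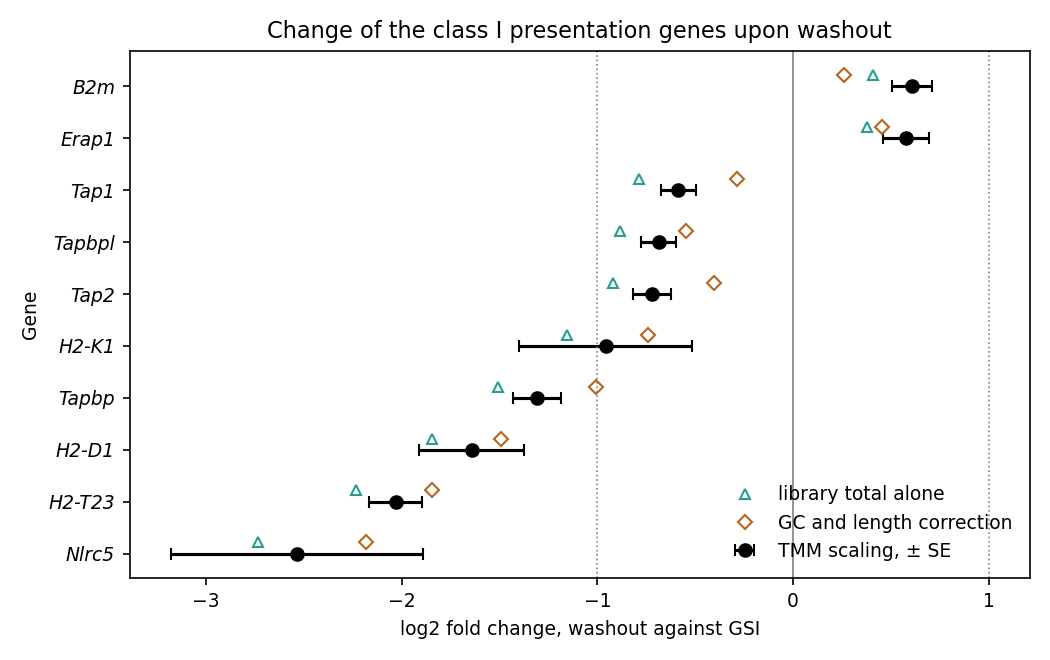
log2 fold change of washout against GSI for the 10 genes (x axis); black points with bars of 1 SE use TMM scaling, triangles the library total alone and diamonds a correction for exon length and GC content. All 3 estimates keep their sign for each gene, *B2m* and *Erap1* lie above 0, and the dotted lines mark the threshold of 1 in either direction.

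The other parts of the pathway were examined with gene lists, of which the heavy chains above were one. Subunits of the immunoproteasome and its activator, which favor peptides that fit class I, showed little change. Of 5 genes, 1 was higher by the adjusted p alone, *Psme2* (log2 fold change 0.39, edgeR adjusted p = 0.0216), and 0 were lower. Of all tested genes, 27.0% were higher and 25.4% lower in this way. The other 4 genes were not called, and the median of the 5 was -0.13. *Psme2* was not called when scaled by the library total alone (0.19), nor without GSI replicate 1, GSI replicate 2 or washout replicate 2 (adjusted p = 0.0834, 0.120 and 0.0523). The 4 counterparts in the constitutive proteasome were all higher by the adjusted p (27.0% of all tested genes), with a median of 0.82. *Psme3*, an activator subunit of nuclear proteasomes, was past both thresholds (106.4 and 113.1 CPM in GSI, 241.7 and 230.4 upon washout, log2 fold change 1.11). The list with the catalytic subunit *Psmb6* (0.65) thus lay on the side of *B2m* and *Erap1*.

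Of 9 genes that fold class I in the endoplasmic reticulum or control its quality, 3 were higher by the adjusted p, near the 27.0% of all tested genes, 6 were not called, and the median was 0.21. *Ppia*, a cyclophilin, rose past both thresholds (log2 fold change 1.19, edgeR adjusted p = 0.000448), whereas *Uggt1*, which marks unfolded glycoproteins, had -0.01. Among 8 peptidases of the cytosol and endosomes, 5 were higher and 1 was lower by the adjusted p (27.0% and 25.4% of all tested genes), with a median of 0.51. The cytosolic peptidases *Lap3* and *Thop1* rose past both thresholds (log2 fold changes 1.73 and 1.25). *Lnpep*, an endosomal relative of *Erap1*, was lower (log2 fold change -0.76, edgeR adjusted p = 0.00774), so that these trimming peptidases of the same family moved in opposite directions.

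Of 18 regulators of class I transcription, 4 were higher and 6 were lower by the adjusted p, 8 were not called, and the median was -0.11. These counts are near the shares of all tested genes (27.0% and 25.4%). The interferon regulatory factor *Irf2* had 395 and 204 counts with GSI and 178 and 76 counts after washout (log2 fold change -1.28). *Rfx5*, a subunit of the RFX complex with which NLRC5 acts, had 60.5 and 65.9 CPM with GSI and 26.5 and 27.5 CPM after washout (log2 fold change -1.23, edgeR adjusted p = 0.000448). *Atf1* was the largest rise (log2 fold change 0.79). *Irf1*, an interferon-induced activator named after its values were seen, had a log2 fold change of -0.79 (edgeR adjusted p = 0.00544).

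All 7 interferon receptors and kinases were lower by the adjusted p, with a median of -0.72, and 3 were past both thresholds. Over all tested genes these shares were 25.4% and 11.7%. *Ifngr1*, the ligand-binding chain of the interferon γ receptor, had 673.1 and 542.1 CPM with GSI and 199.0 and 147.1 CPM after washout (log2 fold change -1.81, edgeR adjusted p = 0.000731). *Jak2* and *Tyk2*, kinases at these receptors, had log2 fold changes of -1.43 and -1.03. *Jak1* had the smallest fall (-0.49) and was not called without GSI replicate 1 (adjusted p = 0.0695).

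Of 12 related class I-like molecules 5 were tested, of which 1 was higher and 4 were lower by the adjusted p (27.0% and 25.4% of all tested genes), with a median of -0.74. *Mr1*, which presents vitamin metabolites to MAIT cells, had 102.6 and 103.4 CPM with GSI and 38.5 and 34.7 CPM after washout (log2 fold change -1.49, edgeR adjusted p = 0.000334). *Fcgrt*, the heavy chain of the neonatal Fc receptor, had 2.69 and 1.85 CPM with GSI and 0.235 and 0.0744 after washout (log2 fold change -3.62). It passed the filter only through its GSI libraries, so that its lower value upon washout was a condition of its being tested. Without *Fcgrt*, 3 of 4 genes were lower and 1 was higher by the adjusted p, with a median of -0.66. Of the 11557 genes left after the same omission over all genes, 2803 were lower and 3265 higher. *Hfe*, a regulator of iron uptake, had a log2 fold change of 1.12 (edgeR adjusted p = 0.0372). It was not called in DESeq2 (1.13, adjusted p = 0.136), with the library total alone (0.92, adjusted p = 0.0656) or when any 1 library was left out (0.81 to 1.40, adjusted p between 0.0598 and 0.240).

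Class II presentation genes are given for comparison. Of 13 genes 10 were tested, of which *H2-Ob*, *H2-DMb1* and *H2-DMb2* passed the filter only through the GSI libraries, so that their lower values upon washout support nothing. Of the other 7, 4 were lower with both thresholds and 3 were not called, with a median log2 fold change of -1.98. Of the 11557 genes left after the same omission over all genes, 1120 were lower with both thresholds. *H2-Ab1*, a class II β chain, had 20.3 and 11.2 CPM with GSI and 2.79 and 1.34 CPM after washout (log2 fold change -2.85, edgeR adjusted p = 0.00223), and *H2-Eb2* had a log2 fold change of -2.88. *H2-Ob* had 20 and 8 counts in GSI and 0 in both washout libraries, which is at least 3.77-fold lower when 3 counts are taken as the limit of each washout library. *H2-DMb1*, with 37 and 7 counts in GSI, had 3 and 1 upon washout. The median over all 10 was -2.51, or -2.15 with *H2-Ob* and *H2-DMb1* at that limit. *Ciita*, the class II relative of *Nlrc5*, had 26, 27, 35 and 21 counts and overlapped between conditions (log2 fold change -0.01, edgeR adjusted p = 0.993).

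**Figure D4:**
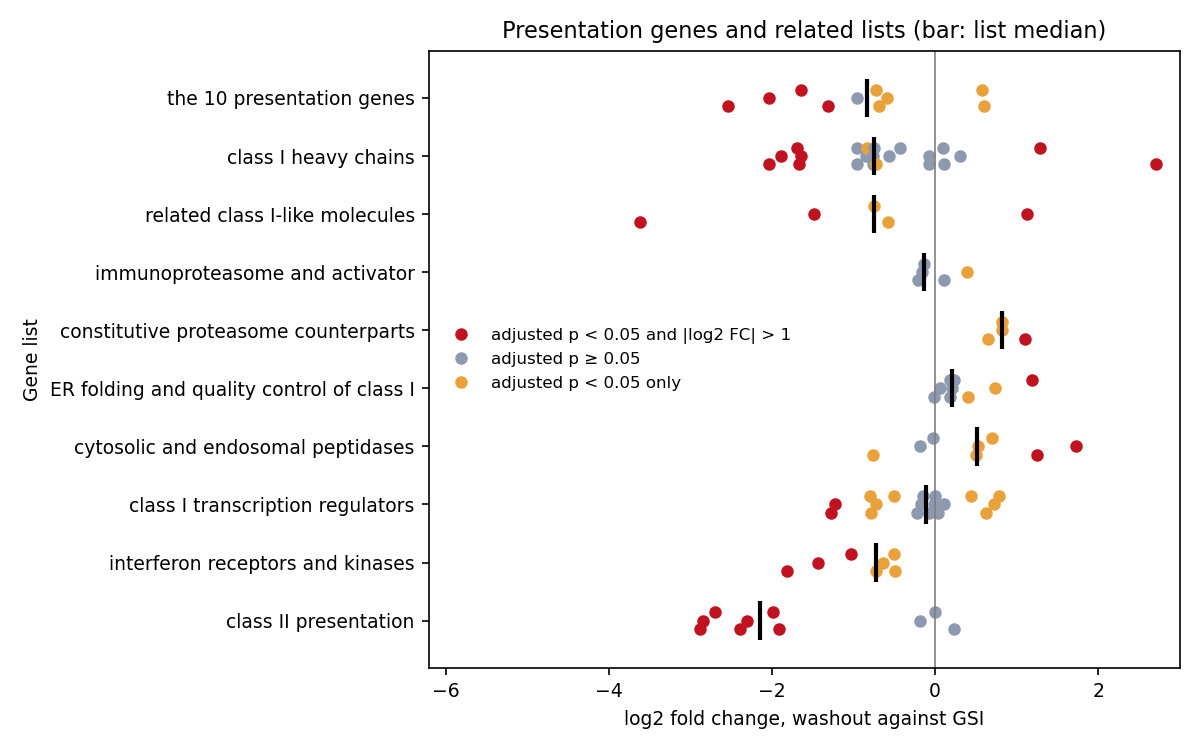
log2 fold change of washout against GSI for every tested gene of each list (x axis, 1 point per gene, black bar at the list median); *H2-Ob* and *H2-DMb1* are placed at the fold that 3 counts per washout library allow. The medians lie at -0.84 for the 10 presentation genes, -0.72 for interferon receptors and kinases, -2.15 for class II presentation and 0.82 for the constitutive proteasome counterparts.

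Total counts were between 13716199 and 36364200 per library, with replicate 1 deeper in both conditions. Washout minus GSI was the only contrast, and replicates of a condition correlated at 0.986 or more in log2 CPM over the genes tested. All 12 T progenitor markers passed the filter, with summed levels between 5730 and 6254 CPM, the largest part from *Rag1*. *Ptcra* (log2 fold change 2.37) was higher and *Cd28* (-1.47) lower past both thresholds. By the adjusted p alone, *Cd3g* (0.86) and *Rag2* (0.64) were higher, and *Tcf7* (-0.87), *Bcl11b* (-0.72) and *Thy1* (-0.58) lower. The near-equal sums therefore do not mean that the single markers were unchanged. B cell markers summed to at most 0.960 CPM in any library, with 3 of 6 at 0 in all libraries. Summed NK cell, mast cell, myeloid and dendritic cell markers were lower upon washout, as most presentation genes were. The 6 NK cell genes summed to 2606 and 1804 CPM with GSI and 388.0 and 308.0 CPM after washout, nearly all from *Gzma*. *Prf1* was the only other one tested. *Ncr1*, *Klrb1c* and *Eomes* had at most 5 counts in any library, and *Klrd1* was at 0 throughout. The 6 mast cell genes summed to 274.5, 166.7, 45.7 and 30.5 CPM from *Cpa3* and *Kit*, with the other 4 at 0. Of the myeloid list 8 genes were in the table, 2 of them at 0, and their sum was 53.4, 41.7, 13.1 and 12.8 CPM. Most of it came from *Itgam* (48.7, 37.9, 5.38 and 4.76 CPM), while *Cd68*, the other myeloid gene tested, was higher upon washout (4.28, 3.43, 7.58 and 7.81 CPM, log2 fold change 0.98, edgeR adjusted p = 0.0112). The dendritic cell list of 6 summed to 2.09, 1.37, 0.764 and 0.670 CPM, with 2 at 0. Their part in the lower class I and class II values was not tested, and in bulk RNA fewer cells of a type and less RNA per cell cannot be told apart.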

How the data were processed

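RNA-Seq libraries were prepared from total RNA of Beko cells after removal of ribosomal RNA with a stranded kit, 2 per condition. The authors trimmed the reads, aligned them with HISAT2 2.2.1 to mm9 keeping 1 alignment for each read, and counted the reads on genes with summarizeOverlaps. The strand setting and overlap mode are not given in the sources used here. The deposited values are raw counts for 24391 gene symbols, without normalization or pooling, and every library's column was used. DESeq2 1.24.0 is also listed in the submitters' processing notes.

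The test was that of edgeR 4.0.16, run in R 4.3.3 (filterByExpr, TMM, quasi-likelihood test without covariates), with Benjamini-Hochberg adjustment over the 12266 genes tested. Genes were called at an adjusted p under 0.05 with a log2 fold change beyond 1 in either direction, the thresholds of the study's methods, which used DESeq2. The adjusted p alone was added here as a second, milder rule. The SE is the size of the log2 fold change over the root of F. CPM used the library total times the TMM factor. Positions, exon lengths and GC content came from GENCODE vM1 on mm9 for the 20641 symbols that matched 1 gene, and promoter windows came from RefSeq on GRCm38.p6, without conversion between builds. In simulated counts, drawn independently for each library, log2 changes of 1.5 were put into 200 genes. With both thresholds the test recovered 169 with 0 false calls among 12122 genes, and DESeq2 1.42.0 recovered 166. Calls by the adjusted p alone were not checked in this way.

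The 10 genes and all lists were chosen with earlier results of these data known. The genes named are the 10 members, every heavy chain tested and, from each other list, the largest rise, the largest fall and up to 4 genes past both thresholds. *Ciita* and *Irf1* were added after their values were seen. One item is not reported here. Alternatives were DESeq2, RLE size factors, the library total alone, a filter of 1 count in total or of 10 counts in each library, a replicate block, thinning to the depth of the smallest library (with and without the block), correction for exon length and GC content (10962 genes, 89.4%, with and without the block), glmTreat against a log2 fold change of 1, and omission of each library in turn.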

Additional observations from a re-analysis of the deposited data

How the results depend on the processing

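Over 149 alternative values of the 10 genes, 136 kept their direction and call, 10 lost the call, 3 gained it and 0 reversed. glmTreat, which tests against a log2 fold change of 1, left 1 of the 4 genes lower past both thresholds (*H2-T23*), and accounts for 8 of the lost calls. The correction for GC content and exon length left 1 of the 2 genes that were higher, since *B2m* was not called, but both with the replicate block added (*B2m* 0.25, adjusted p = 0.00253). The median log2 fold change of the 10 genes was -1.04 with the library total alone, which moves the median of all genes to -0.21. It was -0.76 with at least 10 counts in every library, where *Nlrc5* was not tested, -0.64 with the GC and length correction, -0.62 with that correction and the replicate block, and between -1.02 and -0.68 when a library was left out. Over all tested genes, both thresholds called 950 higher and 1437 lower, against 586 and 1963 with the library total alone, 985 and 1077 with the GC and length correction, and 308 and 501 with glmTreat.

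The summed heavy chain counts were called, unlike in the fit reported, with the library total alone (-0.52), the replicate block (-0.33), the GC and length correction (-0.34), that correction with the block (-0.35), thinned counts with the block (-0.35) and *H2-Q8*, *H2-Q9*, *H2-L* and *H2-T9* left out (-0.37). Counting only the rows with identical counts once left it uncalled (-0.32). Without 1 library the log2 fold change of the sum was between -0.44 and -0.19, and it was called without washout replicate 2 (adjusted p = 0.0242). The cause was not tested. The sources link same-numbered libraries by their number only. Their deviations correlated at 0.47 over 12266 genes, so they share some variation, and replicate 1 is the deeper library in both conditions. Whether this reflects a pairing or depth was not tested, and the fit reported has no block. With the replicate block, *H2-K1* was called (-0.92, adjusted p = 0.0100), and both thresholds called 981 higher and 1576 lower genes. The adjusted p alone called 4243 higher and 4216 lower genes with the block, against 3315 and 3120 without it. Where a library was left out, the remaining one of its condition is assumed to vary like the other condition.

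Reversals were confined, among the genes named by rule, to 7 genes that were not called. *Uggt1* was 0.00280 with DESeq2, 0.023 without a filter, 0.25 with the GC and length correction and 0.25 with the block added, where it was called (adjusted p = 0.00291), and ran from -0.12 to 0.11 without single libraries. *H2-Q7* and *H2-Q9* were both 0.041 with DESeq2 and ran from -0.59 to 0.51 without single libraries. *H2-Q7* was 0.069 with the GC and length correction, and *H2-Q9* was 0.13 with thinned counts and 0.12 with the block added. With the library total alone, *H2-T22* and *H2-T9* were -0.11 and -0.10. Without single libraries, *H2-T22* ran from -0.00936 to 0.22, *H2-T9* from -0.00191 to 0.24, *H2-M5* from -0.88 to 1.31 and *H2-Q2* from -0.85 to 0.094. Low counts limit *H2-K1*, *Nlrc5*, *H2-Q5*, *H2-M3* and *H2-T3*.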
